A study of Homo sapiens with 32 samples.

Results

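The 4 RNA-seq libraries labelled WT, clone 27, second replication, form the series called 27-2 here, and they are 4 of 32 libraries in all. MCF10A cells come from human breast epithelium and do not form tumours, and in this study their JUNB WT clones 27 and 2 and JUNB mut clones 1 and 65 received either solvent or 5 ng/mL TGFβ1 for 6, 24 or 72 h. Each clone was cultured in 2 replications, so that 4 libraries share every combination of genotype and treatment, and a series is written as clone and replication. The solvent libraries carry the time 0 h in the labels, and the study's methods describe solvent for 72 h. Both WT and mut clones were grown from single sorted cells after CRISPR/Cas9 transfection, so that a clone stands for 1 cell. Whether the replications were separate cultures is not stated in the labels, and the study describes 2 independent biological replicates per condition. In the mut clones a longer part of JUNB is deleted, and they still make a smaller JUNB polypeptide.

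Series 27-2 was selected on its own measured expression values, since it stood apart from the 12 other WT libraries (27-1, 2-1 and 2-2) in an earlier analysis of these counts. Its differences from those libraries are therefore given as a description, with no test. Each 27-2 library was set against the 3 other WT libraries of the same treatment. A gene was called apart when 27-2 lay beyond all 3 in the same direction at each of the 4 treatments and the mean log2 difference was at least 1 in size. Values are CPM, the counts scaled to a common library total, and differences are on the log2 scale of CPM after a prior count of 0.5.

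Epithelial-mesenchymal transition (EMT) is the process in which epithelial cells give up cell-cell junctions and take on migratory, matrix-producing properties. TGFβ1 induces it in mammary epithelial cells, where junction genes such as CDH1 (E-cadherin) decline and matrix and cytoskeletal genes such as FN1 (fibronectin) and VIM (vimentin) increase. Complete and stable loss of a gene's transcript in a cell line often goes with a closed promoter, and promoters rich in CpG dinucleotides can be closed by DNA methylation, which was not measured here.

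Library totals were 39863475 to 49442595 counts in 27-2 and 39702412 to 54651906 in the other WT libraries, so that depth was in the same range. A count of 0 allows up to 3 counts, which is 0.0549 to 0.0756 CPM over the libraries and covers counting error only. The targeted gene JUNB (chromosome 19, 12791486 to 12793315, GRCh38), an AP-1 subunit that overlaps HOOK2, had 94.0 CPM in 27-2 solvent cells and 187, 261 and 163 CPM after 6, 24 and 72 h of TGFβ1. In the other WT libraries it lay between 89.7 and 117, 217 and 276, 249 and 297, and 165 and 175 CPM at these times. The mut libraries ranged from 69.2 to 172 CPM in solvent and, in the order of the times, 129 to 494, 253 to 518 and 122 to 359 CPM, so that JUNB counts do not check the genotype labels. Of the genes that define MCF10A as a basal-like line, KRT5 was at 3262 to 5605 CPM in 27-2 (other WT 3431 to 6997). TP63 was at 64.7 to 91.0 CPM (others 68.3 to 152), and the estrogen receptor gene ESR1 was at most 0.719 CPM (others at most 1.22). With KRT14 and EPCAM, all 5 tested check genes lay below all 3 other WT libraries in solvent, beside 35.1% of all tested genes. Their list median was -0.60 in solvent and -0.25 at 72 h.

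The clone label of 27-2 was examined through genes that are off in one series and on in another, meaning under 0.5 CPM in each of the 4 libraries of the first and at least 2 CPM in each of the 4 of the second. The 2 series labelled clone 27 differed by 32 such genes. For clones 2, 1 and 65, the corresponding number between replications was 0 each. All 7 pairs that include 27-2 differed by 29 to 43 genes, and the 21 pairs without it by 0 to 8. By this count 27-2 stood apart from every series, the one with the same clone label included. The 5 genes that separate 27-1 from both series of clone 2 did not place 27-2 on either side. PCSK1N, a secretory granule protein, was at 5.20 to 7.58 CPM in 27-1, 5.62 to 9.15 in 27-2, and at most 0.448 in clone 2. TPTEP1 was likewise off in both clone 27 series (at most 0.126 and 0.121 CPM) and at 5.55 to 8.56 CPM in clone 2. FNDC10, in contrast, was at 6.24 to 8.25 CPM in 27-2 and 5.51 to 9.70 in clone 2, but at most 0.439 in 27-1. TMEM30B was at 7.36 to 12.4 CPM in 27-1 alone and at most 0.0405 CPM in 27-2. PCDHGA11 lay in between, at 0.502 to 1.58 CPM in 27-2, 0.176 to 0.366 in 27-1 and 2.41 to 4.30 in clone 2. The origin of 27-2 was not tested.

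In 27-2, 134 of 14865 tested genes were apart on the higher side and 329 on the lower side, which is 0.901% and 2.21% of the genes tested. The median difference over all tested genes was -0.02. By the same rule 27-1 had 159 higher and 59 lower genes, 2-1 had 38 and 3, and 2-2 had 12 and 36, with 27-2 among the libraries that each was compared with. The higher gene nearest the limit was ZNF284 with a mean difference of 1.00, and TMEM132B with 0.996 just missed it. On the lower side CHGB with -1.01 was inside and CKB with -0.996 outside. Without series 2-2 among the reference libraries the lower genes numbered 500.

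A gene was called silenced in 27-2 when it was under 0.5 CPM in each of the 4 libraries of 27-2 and at least 2 CPM in each of the 12 other WT libraries, and switched on in the reverse case. There were 12 silenced and 12 switched-on genes. ARHGAP44 (at most 0.425 CPM in 27-2) and HOXA11 (at least 2.20 CPM in the others) lay closest to the limits among the silenced genes, while ZNF813 (0.554 CPM) and ZNF302 (1.88 CPM) were just outside. Among the switched-on genes HEPH (at most 0.412 CPM in the others) and TSPAN12 (at least 2.06 CPM in 27-2) were closest, and TTC28 (0.64 CPM) and ZNF385D (1.45 CPM) were just outside.

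ZNF518B (chromosome 4, 10439880 to 10457426, minus strand), a zinc finger protein gene, had no count in any of the 4 libraries of 27-2. Its level was 4.91 to 14.0 CPM in the other WT libraries, with 1063, 2204 and 2138 counts over the libraries of 27-1, 2-1 and 2-2. Against a floor of 3 counts per library it was at least 155-fold lower in 27-2. ZNF22 (chromosome 10, 45000923 to 45005326, plus strand), another zinc finger gene, had 0, 0.0423, 0 and 0.202 CPM in solvent and at 6, 24 and 72 h, while the other WT libraries held 9.50 to 14.0 CPM. EVC2, a membrane protein of the primary cilium that acts in hedgehog signalling (chromosome 4, 5542772 to 5709548, minus strand), had 0 CPM in the first 3 of these libraries and 0.283 CPM at 72 h, against 5.48 to 8.71 CPM. For ZNF22 and EVC2 the few counts in 27-2 came mainly from the 72 h library.

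The promoters of 3 silenced and 2 switched-on genes are shown as examples of genes that differ between absent and present within 1 cell line. Each is the RefSeq window of GRCh38.p14 from 250 bases before to 50 bases after the RefSeq start of the gene, read 5′ to 3′ on the strand of the gene, and capitals mark the CG dinucleotides. RefSeq starts can differ from the GENCODE gene ends given above, and the EVC2 window lies inside the GENCODE gene. They lie at chr4:10457377-10457676 (minus strand), chr10:45000673-45000972 (plus strand), chr4:5708510-5708809 (minus strand), chr16:2816987-2817286 (plus strand) and chrX:93673529-93673828 (minus strand).
ZNF518B: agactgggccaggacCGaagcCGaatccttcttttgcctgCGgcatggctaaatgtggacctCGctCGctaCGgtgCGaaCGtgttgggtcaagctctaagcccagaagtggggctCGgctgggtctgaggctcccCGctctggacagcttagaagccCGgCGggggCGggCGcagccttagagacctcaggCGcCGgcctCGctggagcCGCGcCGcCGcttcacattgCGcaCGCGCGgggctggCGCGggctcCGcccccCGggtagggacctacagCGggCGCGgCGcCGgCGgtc
ZNF22: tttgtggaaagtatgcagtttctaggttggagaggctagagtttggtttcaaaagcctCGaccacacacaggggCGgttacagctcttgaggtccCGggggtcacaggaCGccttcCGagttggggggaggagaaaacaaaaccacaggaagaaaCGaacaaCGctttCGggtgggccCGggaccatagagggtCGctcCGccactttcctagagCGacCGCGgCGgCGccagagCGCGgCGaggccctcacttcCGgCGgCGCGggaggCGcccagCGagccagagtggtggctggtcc
EVC2: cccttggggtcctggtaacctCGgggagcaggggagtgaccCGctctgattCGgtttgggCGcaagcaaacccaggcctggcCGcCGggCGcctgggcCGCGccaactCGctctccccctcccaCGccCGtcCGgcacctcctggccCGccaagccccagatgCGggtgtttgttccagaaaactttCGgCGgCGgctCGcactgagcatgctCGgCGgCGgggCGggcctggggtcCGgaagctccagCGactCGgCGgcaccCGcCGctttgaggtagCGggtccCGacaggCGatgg
PRSS21: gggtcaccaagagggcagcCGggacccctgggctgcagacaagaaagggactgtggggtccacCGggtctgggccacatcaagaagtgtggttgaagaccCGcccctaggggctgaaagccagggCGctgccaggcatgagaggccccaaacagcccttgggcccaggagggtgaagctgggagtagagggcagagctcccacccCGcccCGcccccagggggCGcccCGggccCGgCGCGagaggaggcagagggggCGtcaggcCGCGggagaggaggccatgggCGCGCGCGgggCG
NAP1L3: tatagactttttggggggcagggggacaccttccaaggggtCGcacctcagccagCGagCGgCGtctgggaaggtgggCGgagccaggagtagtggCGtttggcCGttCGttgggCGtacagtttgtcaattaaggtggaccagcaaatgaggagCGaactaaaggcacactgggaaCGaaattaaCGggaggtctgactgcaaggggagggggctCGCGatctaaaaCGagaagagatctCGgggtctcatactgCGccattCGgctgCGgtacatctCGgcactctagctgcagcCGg
The windows of ZNF518B, ZNF22 and EVC2 hold 35, 25 and 32 CG dinucleotides, and those of PRSS21 and NAP1L3 hold 19 and 21. Among windows not shown, that of TLR2 (switched on) holds 33 and that of LINC01356 (silenced) holds 6. CG was searched by its letters, which read the same on both strands. Of the 12 silenced genes, 9 had a window in the reference table, with 6 to 35 CG and a median of 25, and 88.9% of the windows held 10 or more. The 11 switched-on genes with an entry had 17 windows (several genes have more than 1 start) with 2 to 55 CG, a median of 17 and a share of 64.7% with 10 or more. Over all 17038 windows of tested genes the median was 24, the range 0 to 69 and the share with 10 or more 79.1%. At least 1 CG was present in 99.0% of all windows.

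The other silenced genes had varied roles. ZNF253 and ZNF93, neighbouring zinc finger genes on chromosome 19, had at most 0.212 and 0.101 CPM in 27-2, with ranges of 5.95 to 9.02 and 3.87 to 8.74 CPM in the other WT libraries. LRRC61 and ZBED10P overlap on the same strand of chromosome 7, so that their counts are uncertain. They had at most 0.0405 and 0.202 CPM in 27-2 and 2.79 to 8.09 and 4.71 to 8.54 CPM elsewhere in WT. HOXA11, a homeobox gene of limb and reproductive tract patterning, had at most 0.0426 CPM against 2.20 to 4.26 CPM. Its overlapping antisense gene HOXA11-AS was also lower at each treatment. The libraries do not keep the strand, so that the counts of this pair are not separate observations. PCDHB4, a clustered protocadherin whose reads are partly shared with near-identical paralogs, had at most 0.162 CPM against 2.47 to 4.08 CPM. ARHGAP44 kept the highest residual level, with 0.176 to 0.425 CPM against 5.12 to 8.20 CPM, and LINC01356, a long non-coding RNA, had at most 0.0846 against 3.65 to 5.15 CPM.

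IRAK3, an inhibitor of Toll-like receptor signalling, was at 0.0502, 0, 0 and 0.0202 CPM in 27-2 and at 2.42 to 6.80 CPM in the other WT libraries. It was the 1 silenced gene that was also off in a mut clone, with at most 0.18 CPM in the 8 libraries of mut clone 1 and 3.98 to 7.36 CPM in those of clone 65. The receptor gene TLR2, by contrast, was switched on in 27-2, at 12.5, 12.7, 23.8 and 20.0 CPM against 0 to 0.19 CPM. A few other innate immune genes were picked after their values were seen, without a count over such genes. TLR4, the lipopolysaccharide receptor gene, was at 6.72, 5.99, 8.37 and 9.28 CPM in 27-2 and at most 0.777 CPM in the other WT libraries. PYCARD, the inflammasome adaptor gene, was at 5.12 to 6.94 CPM against at most 0.65 CPM. NOD2, an intracellular sensor of bacterial cell walls, was lower, at 0.169 to 0.639 CPM against 1.5 to 2.80 CPM. Of 15 tested inflammatory cytokine genes, CSF2 and IL24 (13.3%) were apart on the higher side, beside 0.901% of all genes. The list median was 0.02.

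Of the switched-on genes, PRSS21, a membrane-anchored serine protease best known from testis, was the most abundant in solvent. It had 26.0, 24.9, 16.8 and 15.3 CPM in 27-2 and at most 0.0676 CPM in the other WT libraries. PLCB4, a phospholipase C that acts downstream of G protein-coupled receptors, had 7.07, 7.40, 15.5 and 24.8 CPM, and NAP1L3, a nucleosome assembly protein family member, 9.13, 11.4, 13.6 and 10.2 CPM. Neither gene had a count in any of the 12 other WT libraries, so that they were at least 203-fold and 164-fold higher by the floor of 3 counts per library. The same held for AUTS2 and ZFP82, at least 61.2-fold and 51.1-fold higher. NLGN4X and NRXN3, synaptic adhesion genes, were at 3.58 to 5.87 and 2.55 to 4.07 CPM, and HEPH, a copper-dependent ferroxidase, was at 3.55 to 4.90 CPM. TSPAN12, a tetraspanin of Norrin signalling, had the lowest level of the set, at 2.06 to 3.28 CPM.

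Zinc finger genes appeared on both sides, with ZNF22, ZNF93, ZNF253, ZNF518B and ZBED10P silenced and ZNF569, ZNF630 and ZFP82 switched on. These are 41.7% of the silenced and 25.0% of the switched-on genes by symbol, where 3.18% of all tested genes have such a symbol. In the larger sets of genes apart, the shares were 7.46% (higher) and 5.47% (lower). Of the switched-on genes, 4 of 12 (33.3%) lie on chromosome X (NAP1L3, NLGN4X, HEPH and ZNF630), which holds 3.27% of the tested genes, and none of the silenced genes does. Among the genes apart, 8.21% of the higher and 3.65% of the lower lie on chromosome X. ZNF569 overlaps ZNF570, which was also apart, and ZNF630 overlaps ZNF182 and ZNF81. Of 13 tested genes of the DNA methylation and chromatin silencing machinery 0 were apart, a count that the 0.901% and 2.21% of all genes would also give. DNMT1 and DNMT3A differed from the other WT libraries by a mean of 0.15 and -0.02. Over the 13 genes the mean differences ran from -0.56 (TET1, at most 1.07 CPM in WT) to 0.29 (DNMT3B).

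Summed over the 12 silenced genes, 27-2 had 0.326, 0.592, 0.639 and 1.52 CPM from solvent to 72 h. These are 0.382%, 0.741%, 0.85% and 2.17% of the mean of the matched WT libraries, which held 67.3 to 89.5 CPM. In the 72 h library 2 of the 12 genes were at 0, and in the others 6 to 8. The 12 switched-on genes summed to 87.4, 84.8, 99.8 and 99.9 CPM in 27-2 and to 0.158 to 0.87 CPM in the other WT libraries. That these genes were off or on at all 4 treatments was required by the rule, and the source of the residual counts in the 72 h library was not tested.

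**Figure D1:**
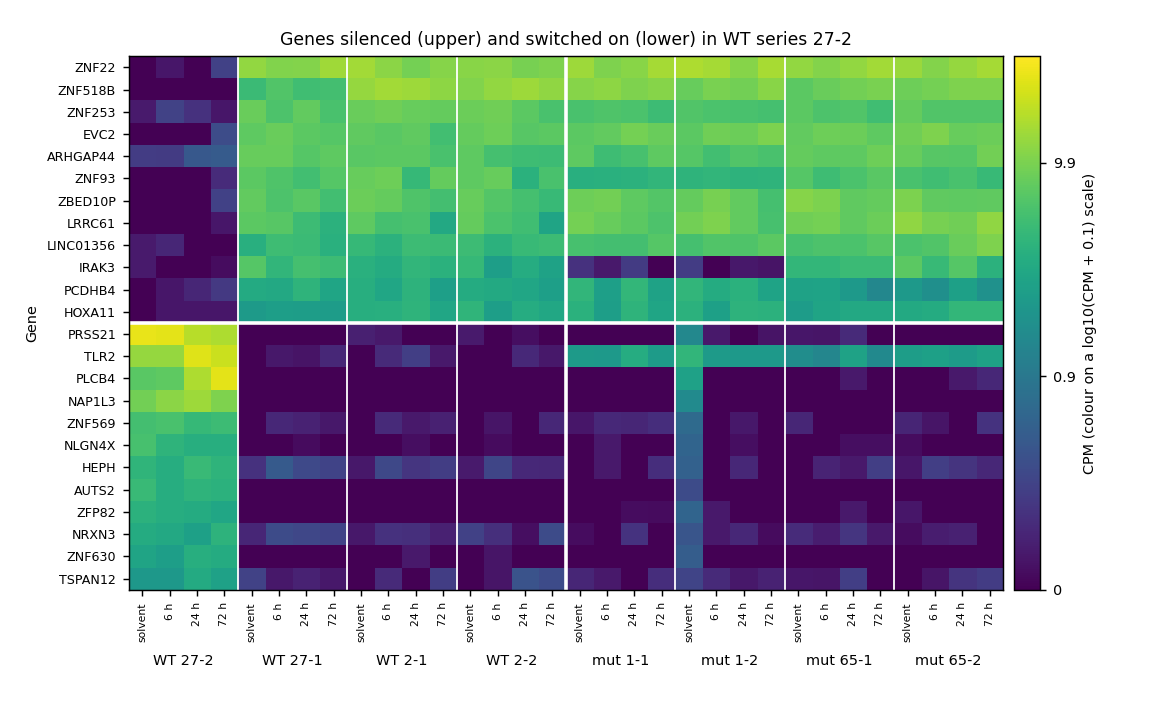
CPM of the 12 silenced (upper) and 12 switched-on (lower) genes in all 32 libraries, coloured on a log10(CPM + 0.1) scale, with treatment along the bottom and thick white lines between WT and mut and between the gene sets. The 4 libraries of WT 27-2 are dark above and bright below, IRAK3 is also dark in mut clone 1, TLR2 is above 1 CPM in every mut library, and the library mut solvent 1-2 shows a faint signal for all 12 switched-on genes.

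In the absence of TGFβ1, 27-2 had a more mesenchymal and less epithelial expression profile than the other WT series. The series was chosen for this trait, and the gene lists were chosen with earlier results of these data known. The list shares given here and in the next paragraphs therefore describe 27-2 and test nothing. Of 19 tested mesenchymal markers, 14 lay above all 3 other WT solvent libraries and 1 below (73.7% and 5.26%), where 25.2% and 35.1% of all tested genes did so. The median difference of the list was 0.82 in solvent, 0.40 at 6 h and 24 h and 0.10 at 72 h, compared with -0.03 for all genes in solvent and 0.01 at 72 h. The 13 mitochondrially encoded genes, a sign of library quality, lay below all 3 other WT libraries in 0, 13, 2 and 8 cases from solvent to 72 h, with medians of 0.03, -0.45, 0.03 and -0.14, and their part in these differences was not tested. With the requirement to be apart at all treatments, 2 of the 19 (10.5%) were called, POSTN and THBS1, beside the 0.901% of all genes.

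FN1 had 1548 CPM in solvent in 27-2, whereas 27-1, 2-1 and 2-2 had 508, 580 and 329 CPM. At 72 h it had 12648 CPM, within the range of 8840 to 17963 CPM of the other libraries. POSTN, the matrix protein periostin, had 19.5 CPM in solvent against 0.587, 0.495 and 0.0504 CPM, and 848 CPM at 72 h against 293 to 555 CPM. The 27-2 library was the highest of its group at each treatment for POSTN, and for FN1 in solvent, at 6 h and at 24 h. CDH2, N-cadherin, had 63.6 CPM in solvent against 35.7 to 40.2 CPM, and 141 CPM at 72 h against 124 to 147 CPM. VIM had 1336 against 810 to 969 CPM in solvent and 1661 against 1350 to 1539 CPM at 72 h. SPARC, a matricellular protein, was highest in 27-2 at each treatment, from 155 CPM in solvent (others 86.2 to 109) to 325 CPM at 72 h (others 191 to 239), with a mean difference of 0.82 ± 0.17 (SD over 4 treatments). THBS1, thrombospondin-1, had 1284 CPM in solvent against 278 to 640 CPM and a mean difference of 1.04 ± 0.39.

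Not every mesenchymal gene was higher. COL1A1, a fibrillar collagen chain, was below the others in solvent (5.59 against 8.41 to 10.3 CPM) and at 72 h (27.1 against 43.5 to 52.6 CPM). TNC, tenascin-C, had 22.8 CPM in solvent, within the range of 19.2 to 35.7 CPM. Of the 6 tested EMT transcription factor genes none was apart by the full rule. In solvent 5 of them (83.3%) lay above all others, beside 25.2% of all tested genes, and the list median was 0.42. Over the 4 treatments the median was 0.28, and 0.15 without 27-1 in the reference. ZEB1, a repressor of epithelial genes, had 15.5 CPM in solvent against 7.79 to 8.16 CPM, and SNAI1, a repressor of CDH1, 0.78 against 0.21 to 0.23 CPM. For TWIST1, with 14.6 against 13.4 to 16.8 CPM in solvent, 27-2 was within the range.

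**Figure D2:**
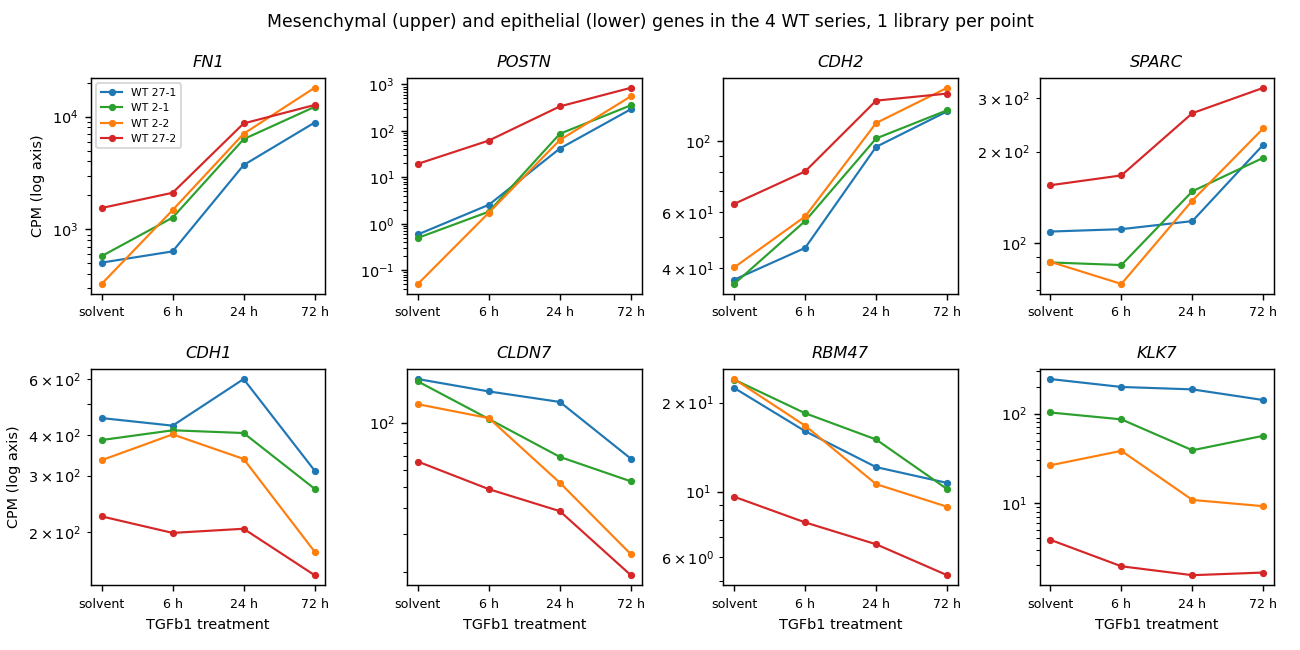
CPM (log axes) of 8 genes in solvent and after 6, 24 and 72 h of TGFβ1, with 1 point per library and 1 line per WT series. FN1, POSTN and CDH2 start highest in 27-2 and draw near the other series at 72 h, SPARC stays highest, and CDH1, CLDN7, RBM47 and KLK7 are lowest in 27-2 at each time.

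Many epithelial genes were lower in 27-2. Among 22 tested adhesion and junction genes, 19 (86.4%) lay below all 3 other solvent libraries, beside 35.1% of all tested genes, and none above. The list median was -0.65 in solvent and -0.58 at 72 h. Of the 22 genes, 6 (27.3%) were apart on the lower side, beside 2.21% of all genes. These were CLDN7 and OCLN of tight junctions, DSG3 and PKP1 of desmosomes, the junction scaffold TJP3, and PPL, a cornified envelope plakin. CDH1 had 224 CPM in solvent against 335 to 453 CPM and 147 CPM at 72 h against 174 to 311 CPM, with a mean difference of -0.92 ± 0.18 that stayed inside the limit. CLDN7 had 65.7 CPM in solvent against 122 to 160 CPM, and 19.3 CPM at 72 h against 24.2 to 67.8 CPM. DSG2, a broadly expressed desmoglein, was within the range in solvent (452 against 422 to 485 CPM), and PKP3, a plakophilin, had 191 CPM against 205 to 234 CPM. So the difference was unequal among junction genes.

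Of 13 tested epithelial regulators, 12 (92.3%) were below all others in solvent, beside 35.1% of all tested genes. On the lower side 4 (30.8%) were apart, beside 2.21% of all genes. These were GRHL1 and GRHL3, grainyhead factors of epithelial barrier formation, OVOL1, a repressor of mesenchymal programmes, and RBM47, an RNA-binding protein of epithelial cells. RBM47 had 9.61 CPM in solvent against 22.4 to 24.0 CPM, so that the 27-2 solvent library lay near the 72 h libraries of the other WT series, which had 8.89 to 10.7 CPM. OVOL1 had 0.68 against 1.64 to 3.74 CPM in solvent, and GRHL3 43.2 against 67.7 to 81.5 CPM. The splicing factor ESRP1 had 118 CPM against 197 to 209 CPM.

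Large differences, which depended on the treatment and the reference series, were seen in squamous differentiation genes and kallikreins, secreted serine proteases of stratified epithelia encoded side by side on chromosome 19. In that list 14 of 22 genes (63.6%) were below all others in solvent, beside 35.1% of all tested genes. Of the 22, 5 (22.7%) were apart on the lower side, beside 2.21% of all genes. The list median was -1.59 in solvent and -0.72 at 72 h. Over the 4 treatments it was -1.47, and -0.88 without 27-1 in the reference. At 72 h 6 of the 22 genes (27.3%) were below all others and 2 above, beside 25.5% of all genes below, and the mean log2 CPM of the list was 0.28 in 27-2 and 0.31 in 2-2. KLK7 had 3.86, 1.95, 1.55 and 1.66 CPM in solvent and at 6, 24 and 72 h. In solvent the other series varied widely for KLK7, with 244 CPM in 27-1, 103 in 2-1 and 26.4 in 2-2, and every one was above 27-2. KLK10 had 6.47 against 34.1 to 183 CPM, and KLK5 5.37 against 18.8 to 90.8 CPM. KLK6, between KLK5 and KLK7, was also apart, at 0.251 against 0.579 to 3.06 CPM, and KRT13, a suprabasal keratin, was at 1.53 against 4.03 to 43.5 CPM. The basal keratin gene KRT14 had 181 against 376 to 468 CPM in solvent, and KRT15 188 against 542 to 898 CPM. KRT5 differed less, with 5234 against 6452 to 6697 CPM. Of 12 tested basal keratinocyte and myoepithelial genes, 8 (66.7%) lay below all others in solvent and 1 (8.33%) above. Of all tested genes 35.1% lay below and 25.2% above. Of the 12, 1 (8.33%, KRT16, lower) was apart, beside 2.21% of all genes.

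Beyond these lists, several genes at the extremes of the comparison had other roles. FADS2, the delta-6 fatty acid desaturase, had 166, 233, 216 and 179 CPM in 27-2 and at most 31.5 CPM in the other WT libraries. NUDT11, a diphosphoinositol polyphosphate phosphohydrolase, had 14.9 to 21.1 against 0.579 to 2.12 CPM. LCP1, the actin-bundling protein L-plastin, had 60.5 CPM in solvent against 1.76 to 10.3 CPM. SATB1, a chromatin organiser, was at 26.9 to 30.6 CPM in 27-2, 11 to 17.7 CPM in 27-1 and at most 1.19 CPM in clone 2. COL6A3, a collagen VI chain, had 120 against 19 to 38.8 CPM in solvent. On the lower side, CCL28, an epithelial chemokine, had 0.57 to 1.91 against 5.94 to 22.4 CPM, and CFI, complement factor I, 0.72 to 1.71 against 8.57 to 14.7 CPM. SLC47A1, a drug and cation exporter, was at 0.81 to 2.94 against 8.91 to 24.7 CPM, and ADD2, the membrane skeleton protein beta-adducin, was at 0.97 to 1.17 against 3.60 to 18.9 CPM. NIPAL4, a gene of the epidermal barrier, was at 0.38 to 3.44 against 4.09 to 18.5 CPM. Among 20 proliferation genes none was apart, but 14, 18, 16 and 5 lay above all 3 other WT libraries from solvent to 72 h, and none below at any of these times. Shares of all tested genes above were 25.2%, 26.2%, 25.3% and 29.1%, and the list medians were 0.21, 0.33, 0.34 and 0.22. Of the 12 MHC class I and antigen processing genes 1 (8.33%) was apart (PSMB9, higher), beside 0.901% of all genes. Of the 20 tested interferon-stimulated genes 1 (5%) was apart (BST2, lower), beside 2.21%. Each of these shares rests on 1 gene.

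A gene that stood out for the size and steadiness of its difference was EP300, a histone acetyltransferase, named after its values were seen. It had 6.25, 6.07, 6.49 and 5.70 CPM in 27-2 and 34.4 to 39.0 CPM in the 12 other WT libraries, a mean difference of -2.59 ± 0.05 (SD over 4 treatments). L3MBTL2, a polycomb-type chromatin protein gene on the same strand of chromosome 22 (EP300 at 41092592 to 41180077, L3MBTL2 at 41205282 to 41231271), was higher, at 71.0 to 84.5 against 33.5 to 49.2 CPM. The adjacent genes PARVB and PARVG, integrin-linked parvins further along that chromosome, were both lower. PARVB had 6.15 to 8.54 against 38.8 to 53.7 CPM, and PARVG 0.251 to 0.852 against 5.4 to 8.11 CPM. Across the genome, 43 of the 329 lower genes lay in 20 runs of at least 2 neighbouring tested genes, and 9 of the 134 higher genes in 4 such runs. How many such runs genes in general would give was not worked out, so that these counts do not show clustering. Some runs hold overlapping genes, such as HOXA11 with HOXA11-AS and LRRC61 with ZBED10P, whose counts are not separate observations in unstranded libraries. The longest runs had 3 genes, among them KLK5, KLK6 and KLK7, and DUOX2, DUOXA1 and DUOX1, the dual oxidases with their maturation factor.

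On a larger scale, 27-2 differed from the other WT series along much of chromosome 10. The interval was cut from these same values, as the stretch whose running medians over 51 neighbouring genes were at least 0.1, so that its values describe it and test nothing. Over 296 genes from ZNF33A to EEF1AKMT2 (38010650 to 124791887) the median difference was 0.17, and 256 of them (86.5%) were positive, where 48.0% of all genes with a mean of at least 5 CPM were. From solvent to 72 h the median of the interval was 0.18, 0.15, 0.14 and 0.22. The 123 other genes of chromosome 10 had a median of 0.01. All other chromosomes had medians between -0.03 and 0.02, and their runs of 51 neighbouring genes had medians between -0.12 and 0.07, whereas the highest run on chromosome 10 reached 0.23. The silenced gene ZNF22 lies within the interval, against its direction.

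The response of 27-2 to TGFβ1 was compared with that of the other WT series for genes called in libraries that do not include the series itself. In the 12 other WT libraries, 644 genes rose and 971 fell at 72 h with an absolute log2 fold change of at least 1 (4.33% and 6.53% of 14865, limma-voom adjusted p-value under 0.05). Without this minimum 1970 rose and 5507 fell (13.3% and 37.0%), and with TMM (trimmed mean of M-values) factors, which moved the median of all genes from -0.21 to -0.03, 3122 rose and 3197 fell. In 27-2, 616 of the 644 (95.7%) had a higher value at 72 h than in solvent, and 94.3% of the 971 a lower value. The median change in 27-2 was 1.24 and -0.97, compared with 1.69 and -1.55 in the fit. For 27-1, 2-1 and 2-2, each measured on genes called without it, the median changes were 1.47, 1.49 and 1.81 for higher genes and -1.21, -1.29 and -1.71 for lower genes. So the changes of 27-2 had the same directions, and their medians were the smallest of the 4 series on both sides, with 1 library per treatment. The medians come from unlike gene sets, since the sets of 27-1, 2-1 and 2-2 were called in fewer libraries. They held 634, 498 and 521 higher genes and 1026, 707 and 714 lower genes.

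For single genes the change at 72 h in 27-2 was 3.03 for FN1, below the 4.12 to 5.77 of the other WT series, and 5.44 for POSTN against 8.94 to 13.1. The change of CDH2 was 1.15 against 1.75 to 1.86. CLDN7, with -1.77, and CDH1, with -0.61, were within the ranges of -2.33 to -1.24 and -0.95 to -0.50. The other WT libraries are the reference in both comparisons, and the solvent libraries enter both these changes and the baseline differences given above, so that a higher start and a smaller change of a gene are not separate observations.

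The 16 mut libraries share no library with the comparison of 27-2 and the other WT series. In mut cells 1215 genes rose and 2441 fell at 72 h (8.17% and 16.4% of those tested). The genes apart on the higher side in 27-2 were among those that rose in mut cells in 31 of 134 cases (23.1%) and among those that fell in 4 (2.99%). Of the 329 genes apart on the lower side, 102 (31.0%) fell in mut cells and 18 (5.47%) rose. With TMM factors, which moved the balance of calls in mut cells from 33.2% to 50.2% higher, these shares were 23.9% and 28.3%, beside 11.1% and 11% of all genes. Without the library mut solvent 1-2, whose values follow, they were 21.6% and 30.7%, beside 7.68% and 14.6%. In the 12 other WT libraries, which are the reference for 27-2, 40 of the 134 genes (29.9%) rose, beside 13.3% of all genes. There 113 of the 329 genes (34.3%) fell, a share no larger than the 37.0% of all genes.

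Taking the mut calls as the starting point, the 363 genes that rose in mut cells by at least 1 on the log2 scale (2.44% of those tested) had a median difference of 0.50 between 27-2 and the other WT libraries in solvent and of 0.27, 0.16 and -0.05 at the later times. In solvent 280 of them (77.1%) were higher in 27-2, where 45% of all tested genes were. The 504 genes that fell by at least 1 (3.39%) had medians of -0.82, -0.76, -0.56 and -0.20. In solvent 56 of the 504 (11.1%) were higher in 27-2. The corresponding solvent medians for 27-1 were -0.01 and 0.38, for 2-1 -0.01 and 0.40, and for 2-2 -0.41 and 0.19. Each of these series was compared with a set that includes 27-2, so that their medians are not independent of those of 27-2. Among the named genes, FN1 rose in mut cells by 3.85 ± 0.43 (SE, limma-voom adjusted p-value 4.46e-06), POSTN by 6.96 ± 1.03 (adjusted p-value 7.33e-05) and CDH2 by 1.28 ± 0.13 (adjusted p-value 2.61e-06). The log2 fold change was -1.93 ± 0.15 for CLDN7 (adjusted p-value 3.16e-07), -0.90 ± 0.11 for RBM47 (adjusted p-value 1.18e-05) and -3.50 ± 0.34 for KLK7 (adjusted p-value 1.45e-06). In the 12 other WT libraries, which serve as the reference for 27-2, the change of KLK7 was -1.07 ± 1.13 (adjusted p-value 0.454), and of the fits tried it passed the threshold in 1, the paired fit with a replicate block by series, at -0.93. Without mut solvent 1-2 the changes in mut cells were 4.42 for FN1 and 8.44 for POSTN.

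The mut solvent library 1-2 held transcripts of all 12 switched-on genes and is described here for that reason. Their sum was 13.3 CPM, compared with 1.85 to 2.55 CPM in the remaining solvent libraries of mut cells and 2.26 to 2.44 CPM in the treated libraries of series 1-2. PLCB4 had 116 counts (2.61 CPM), NAP1L3 66 counts (1.48 CPM) and PRSS21 61 counts (1.37 CPM) in this library. TLR2 was expressed in every mut library (1.32 to 4.34 CPM). Over the 11 genes without TLR2 the level was 11.2% of that in 27-2 at 72 h and 12% of that in 27-2 solvent, with a range of 6.87% to 18.3% and 5.27% to 36.8% over single genes. FN1 and POSTN had 1413 and 87.5 CPM in this library and 249 to 373 and 0.466 to 2.50 CPM in the other mut solvent libraries. Of the 134 genes apart on the higher side in 27-2, 55 (41.0%) were above all 3 other mut solvent libraries by at least 1 on the log2 scale, beside 2.49% of all tested genes, and so were 7 of the 329 lower genes (2.13%). The silenced genes summed to 79.6 CPM there. The source of these transcripts was not tested, and the mut tests were repeated without this library.

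Markers of other cell types were in part expressed in the WT libraries, 27-2 included. Of the fibroblast list, COL3A1 and THY1 were at most 0.0426 CPM each in 27-2, and COL1A2 was at most 0.364 CPM, above the at most 0.0914 CPM of the other WT libraries. DCN was at 10 to 14.5 CPM in 27-2 (others 4.34 to 24.2), FAP at 51.4 to 229 CPM (others 21.1 to 324) and COL6A3, the 1 of 6 tested genes that was apart, at 120 to 522 CPM (others 19 to 410). The summed fibroblast level was 187 to 775 CPM in 27-2 and 62.1 to 733 CPM in the other WT libraries, most of it from FAP and COL6A3. The leukocyte genes PTPRC and CD3E had no count in 27-2, and their list summed to 21.1 to 27.8 CPM against 20.6 to 39.4 CPM, most of it from CSF1R (10.4 to 24.7 CPM in 27-2) and CD14 (2.73 to 9.98 CPM). The endothelial list summed to 3.88 to 6.77 against 3.96 to 17.0 CPM, with VWF and CLDN5 at most 0.10 and 0.0502 CPM and KDR at 3.24 to 5.52 CPM in 27-2. The part of such cells in the results was not tested.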

How the data were processed

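The deposited table holds raw counts per gene for 32 RNA-seq libraries (unstranded TruSeq, 17788 genes). The authors trimmed reads with Trimmomatic, aligned them with STAR to GRCh38 with Ensembl annotation and deposited the counts without normalization. Every column matched a sample, and other columns of per-sample values numbered 0. Gene positions came from GENCODE release 44 and promoters from RefSeq.

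Series 27-2, its members and the gene lists were chosen with earlier results of these data known. CPM used library totals. Genes were kept by filterByExpr over all libraries (14865 genes). Named genes were all silenced and switched-on genes, the 10 highest and 10 lowest apart genes of at least 10 CPM, apart members of the lists, the mesenchymal, EMT factor and epithelial lists, and JUNB, and 1 result under this rule is not reported here. TGFβ1 changes were tested in the 12 other WT and in the 16 mut libraries with limma-voom (limma 3.58.1, R 4.3.3) with 1 coefficient per condition, library-size scaling and Benjamini-Hochberg adjustment at 0.05, after the study's methods, and the script was tested on simulated counts. Alternatives used edgeR 4.0.16 and DESeq2 1.42.0. A series is 1 clone and replication by the labels, which pairs its libraries. Deviations from the group means correlated within series by 0.13 to 0.52 in WT (18 pairs) and 0.02 to 0.33 in mut (24 pairs). With 3 (WT) or 4 (mut) libraries per condition, p-values measure the spread between these libraries. The study describes its replicates as biological, but the labels do not say so, and part of this spread may be technical. No libraries of a group were duplicates (counts differed by a chi-square of at least 11.6 per degree of freedom).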

Additional observations from a re-analysis of the deposited data

Results flagged for a closer look

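Outlying libraries were looked for by Dixon's ratio at the 95% level in the 8 groups of 4 libraries, for 9 measures (72 combinations, of which chance flags about 1 in 20), and 12 were found. Of these, 9 concern 27-2 and follow from the choice of the series or its genes. The silenced genes summed to 0.326 (solvent), 0.592 (6 h), 0.639 (24 h) and 1.52 CPM (72 h) in WT 27-2, and the switched-on genes to 87.4, 84.8, 99.8 and 99.9 CPM. The mean log2 CPM of mesenchymal markers, the trait for which the series was chosen, was 7.17 at 6 h and 6.58 to 6.67 in the other WT series.

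The library mut solvent 1-2 had 13.3 CPM of the genes switched on in 27-2, far from the 1.85 to 2.55 CPM of the other mut solvent libraries. The silenced genes summed to 73.0 CPM in mut 6 h 1-1 and 81.4 to 82.6 CPM in the other libraries of that group. JUNB had 117 CPM in WT solvent 2-1 and 89.7 to 94.0 CPM in the other WT solvent libraries.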

How the results depend on the processing

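For the genes apart in 27-2 (134 higher, 329 lower), a minimum difference of 2 gave 57 and 150, no minimum 848 and 1103, a mean count of at least 50 gave 66 and 218, and 27-1 as the only reference 245 and 648. Without 1 other WT series the counts were 141 to 167 higher and 333 to 500 lower, the latter without 2-2. TMM factors, no filter, a prior count of 2, thinning and leaving out a treatment stayed within 1.5 times. Limits of 0.2 and 5 CPM left 0 silenced and 4 switched-on genes, other settings stayed within 1.5 times, and without 1 series there were 12 to 18 silenced and 12 to 14 switched-on genes. For the series 1-2 among mut (8 higher, 16 lower), a minimum of 2 gave 1 and 5, and without 1 series 8 to 74 higher and 24 to 105 lower.

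In the 12 other WT libraries, 1970 genes rose and 5507 fell at 72 h. TMM factors gave 3122 and 3197, DESeq2 3389 and 3144, a minimum log2 change of 1 gave 644 and 971, and without 1 series 1234 to 1933 and 3602 to 5268. The median change of all genes was -0.21 with library-size scaling and -0.03 with TMM factors. In mut, DESeq2 gave 1880 higher genes, a minimum of 1 gave 363 and 504, without 1 series 787 to 1032 and 1365 to 1968, and without mut solvent 1-2, chosen after seeing the data, 1141 and 2166. The series as a replicate block, that is a paired fit, gave 2310 higher and 6139 lower genes in WT and 1502 and 3044 in mut, and changed 1 call of the genes named with a p-value, that of KLK7 in the other WT libraries, which it passed at -0.93. The call of CDH1 in the other WT libraries was lost with TMM factors (-0.49), with DESeq2 (-0.45) and without 2-1 (-0.74).

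List medians without 1 other WT series were 0.15 to 0.32 for EMT factors, -0.76 to -0.56 for junctions, -1.85 to -0.88 for squamous genes, -0.50 to -0.35 for basal genes and 0.18 to 0.39 for proliferation. The highest run on chromosome 10 was 0.26 with TMM factors and 0.21 over longer runs, against 0.23. Causes of these shifts were not tested. Depth limits statements on genes below about 0.1 CPM, and 1 library per series and treatment leaves the differences of 27-2 without replicates.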
